A study of Mus musculus with 6 samples.

Results

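The Apoe cluster and the lipid-export genes controlled by the liver X receptors were compared between microglia of wild-type (WT) and IRF8 knockout (IRF8KO) mice. The 10 genes are the apolipoprotein genes Apoe, Apoc1, Apoc4 and Apoc2, which lie side by side on chromosome 7, the receptor genes Nr1h3 (LXRα) and Nr1h2 (LXRβ), and the lipid-handling genes Abca1, Abcg1, Pltp and Lpl. They were chosen by name, with their levels in these 6 libraries already known, out of 49585 genes in the count tables, and all 10 were found by symbol. The knockout-against-wild-type values of these 10 genes are therefore given as a description, without p-values.

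The study profiled polyadenylated RNA of untreated male mice aged 3 months, with 3 WT and 3 IRF8KO libraries. Each brain was taken apart without enzymes, its microglia, which are macrophages that live in the brain tissue, were sorted by flow cytometry, and the cDNA was made with a low-input full-length kit. IRF8 is a transcription factor of the myeloid lineage, and the labels name neither the knockout allele nor the sort markers. No Cre driver or transgene is named for either group, and all samples share the sex, the age and the isolation.

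Apolipoprotein E is the main carrier of cholesterol and phospholipid between cells of the brain. Liver X receptors are nuclear receptors that bind oxidised cholesterol, pair with a retinoid X receptor and switch on genes that move cholesterol out of the cell, among them Apoe itself and the transporters ABCA1 and ABCG1. In macrophages the ABC transporters load cholesterol onto apolipoproteins, phospholipid transfer protein (Pltp) remodels the resulting particles, and lipoprotein lipase (Lpl) releases fatty acids from triglyceride-rich ones.

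In IRF8KO microglia the cluster genes Apoe, Apoc1 and Apoc4 and the transfer protein gene Pltp stood far above WT, by log2 differences of 7.41, 10.87, 10.70 and 4.40. Counted by strand, Pltp was at 1.78 and 1.72, but reads of the overlapping gene Ctsa can then be counted for it. Abcg1 was at about 1.99 times its WT level and the low-count receptor gene Nr1h3 at about 5.16 times. Abca1, Nr1h2 and Lpl lay within or near the range of the WT libraries. Among 9 other LXR target genes with enough counts, none passed the test in the direction of Apoe, and Mylip and Mertk fell.

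All levels are CPM, counts per gene scaled to the library total with trimmed-mean (TMM) factors, and a log2 fold change is IRF8KO minus WT with its standard error (SE) from an edgeR quasi-likelihood fit over 11041 genes. A gene is called when its Benjamini-Hochberg adjusted p is under 0.05. The calls covered 19.1% of the genes, 9.64% being above and 9.46% below WT, and the groups did not overlap for 37.9%. Of the 10 genes 9 passed the filter on low counts, 6 of these were called higher and 0 lower, and the groups of the same 6 did not overlap. The count of 0 lower was the same at an unadjusted p under 0.05 in edgeR and with DESeq2 and limma-voom. Apoc1, Apoc4 and Nr1h3 passed that filter only through their IRF8KO counts, so nothing is read from these numbers. The median log2 fold change of the 9 genes was 2.39, against -0.11 over all genes.

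The libraries held 3658917 to 11098363 gene counts, with the smallest in WT replicate 1. WT replicate 3 stood apart from its group: across the tested genes, which are not independent replicates, its log2 CPM correlated (Pearson) at 0.892 and 0.897 with the other WT libraries, which correlated at 0.969 with each other, and at 0.835 to 0.842 with IRF8KO, where those others were at 0.752 to 0.808. Since Apoe alone filled 25.5% to 33.7% of the IRF8KO libraries, the scaling matters for the other genes: with library size alone the median over all genes moved from -0.11 to -0.61, and the calls went from 1064 higher and 1045 lower (50.5% higher) to 652 higher and 1914 lower (25.4% higher). Irf8 itself was counted in all libraries, at 1014 ± 335 CPM in WT and 746 ± 99.7 in IRF8KO (SD, n = 3; log2 fold change -0.44, edgeR adjusted p = 0.368), so its total count does not separate the genotypes. Of 13 microglial markers 7 were called lower and 1 higher, with summed levels of 46832 to 74790 CPM in WT and 34038 to 47722 in IRF8KO, and Sall1 was at 0 in every IRF8KO library.

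The promoters below, from 250 bases before to 50 bases after the start site, are those of Apoe, Apoc4 and Abca1, the first 2 from genes far higher in IRF8KO and the last from a classic LXR target that was not. They are on the minus strand of GRCm38.p6, read 5′ to 3′ from the RefSeq promoter table, at chr7:19699139-19699438, chr7:19681411-19681710 and chr4:53159846-53160145. Capitals mark GGTCACAAGG, the longest run shared by the Apoe and Apoc4 promoters, and in Abca1 the palindrome CACGTG and the closest match to the LXR element.
Apoe: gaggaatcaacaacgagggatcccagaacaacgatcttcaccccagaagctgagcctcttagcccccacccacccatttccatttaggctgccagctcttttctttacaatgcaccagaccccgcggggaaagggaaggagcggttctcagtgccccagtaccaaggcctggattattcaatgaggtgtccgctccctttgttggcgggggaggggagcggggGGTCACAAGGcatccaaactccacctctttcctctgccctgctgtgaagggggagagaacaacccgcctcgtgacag
Apoc4: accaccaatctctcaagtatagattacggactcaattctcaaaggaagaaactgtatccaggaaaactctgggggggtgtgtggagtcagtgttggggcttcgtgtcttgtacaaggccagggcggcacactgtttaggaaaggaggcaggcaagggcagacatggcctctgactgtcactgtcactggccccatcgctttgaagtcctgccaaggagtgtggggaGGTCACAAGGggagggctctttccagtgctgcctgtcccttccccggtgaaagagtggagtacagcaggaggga
Abca1: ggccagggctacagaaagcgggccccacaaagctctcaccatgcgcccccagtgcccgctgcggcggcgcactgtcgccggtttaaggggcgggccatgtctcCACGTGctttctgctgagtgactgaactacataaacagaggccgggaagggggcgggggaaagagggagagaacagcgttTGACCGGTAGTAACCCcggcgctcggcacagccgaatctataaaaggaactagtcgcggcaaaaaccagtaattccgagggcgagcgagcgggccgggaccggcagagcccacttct
The table held promoters for 7 of the 10 genes, 10 sequences in all. The LXR response element was searched as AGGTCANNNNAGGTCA on both strands with at most 2 mismatches in its 12 fixed bases. Of all 32851 promoters of this length 3.02% hold it, and 0 of the 10 did. Only these stretches around the start sites were searched, so elements elsewhere in or around the genes were not looked for. With 3 mismatches allowed, 21.9% of all promoters match, and so did 1 of the 10, in Abca1, on the opposite strand with its first base 67 bases before the start. The composite GGAANNGAAA that IRF8 is known to bind with an ETS partner, held by 2.72% of all promoters, and the repeat GAAANNGAAA, held by 3.44%, were in 0 of the 10. The palindrome CACGTG, in 7.15% of all promoters, was in that of Abca1 only, 147 bases before the start. GGTCACAAGG is in 42 of all promoters (0.128%), and begins 27 bases before the Apoe start and 24 before that of Apoc4. The other Apoe promoters held, at chr7:19698572-19698871 and chr7:19698349-19698648, lack this run. The run was picked after the sequences were read, and a match of letters says nothing of binding.

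Apoe (ENSMUSG00000002985.16, chr7:19696109-19699188, minus strand of mm10) encodes the lipoprotein ligand that gives the cluster its name. It was at 1590, 1182 and 3526 CPM in WT replicates 1, 2 and 3 and at 485777, 248368 and 336468 CPM in IRF8KO replicates 1, 2 and 3. Each IRF8KO library stood above each WT library, and WT replicate 3 was the highest of its group. The means were 2099 ± 1252 and 356871 ± 120012 CPM (SD, n = 3 each), with a ratio of 170 and a log2 fold change of 7.41 (SE 0.76), which became 8.03 without WT replicate 3. As a share of raw gene counts, Apoe held 0.224%, 0.154% and 0.324% in WT and 33.7%, 25.5% and 28.0% in IRF8KO. Exact binomial intervals on these shares are narrow, such as 25.46% to 25.51% for IRF8KO replicate 2, and cover counting error only, not the spread between mice. The PCR reads carry no molecular identifiers, so they are not all separate molecules, and the intervals may be too narrow even for counting error. The WT level was not low: Apoe ranked 40th of all genes by mean CPM in WT, at the 99.6th percentile of the tested genes, and 1st in IRF8KO. In bulk RNA, more cells with Apoe and more Apoe RNA per cell cannot be told apart.

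Apoc1 (ENSMUSG00000040564.14, chr7:19689481-19692660, minus strand) starts 6.5 kb downstream of the Apoe start and encodes a small apolipoprotein that inhibits lipoprotein uptake and lipase activity. It had 2, 19 and 13 counts in WT and 14089, 24248 and 24004 in IRF8KO, or 0.388, 1.34 and 1.79 against 2256, 2171 and 2597 CPM. Its WT level was close to the limit of detection, and its IRF8KO level placed it 36th of all genes. The means were 1.17 ± 0.715 and 2341 ± 226 CPM (SD, n = 3), and the log2 fold change was 10.87 (SE 0.55). Its IRF8KO libraries lay closer together than those of Apoe: the order of the replicates differed, with replicate 1 highest for Apoe and replicate 3 highest for Apoc1. For every 10000 Apoe counts there were 2.44, 11.4 and 5.07 Apoc1 counts in WT and 46.4, 87.4 and 77.2 in IRF8KO, so Apoc1 differed by more than Apoe did in every library pair.

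Apoc4 (ENSMUSG00000074336.5, chr7:19678083-19681479, minus strand) starts 17.7 kb from Apoe and encodes a minor apolipoprotein of triglyceride-rich particles. It had 0, 1 and 3 counts in WT and 1982, 2265 and 2884 in IRF8KO, at 317, 203 and 312 CPM. No WT library had more than 3 counts, and each IRF8KO library was far above the WT libraries. The scaled counts gave a ratio of 1778 (95% exact interval 694 to 6527, for counting error only), and the fit gave 10.70 (SE 0.60), which is set mainly by the few WT counts: it was 12.08 without WT replicate 3 and 10.09 without WT replicate 2. For every 10000 Apoe counts there were 0, 0.598 and 1.17 Apoc4 counts in WT and 6.53, 8.16 and 9.27 in IRF8KO.

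Apoc2 (ENSMUSG00000002992.17, chr7:19671579-19677941, minus strand) starts 21.2 kb from Apoe and encodes the activator of lipoprotein lipase. It had 0 counts in all WT libraries and 17, 10 and 1 counts in IRF8KO, and did not pass the filter. Over the group it was at least 9.31-fold higher in IRF8KO than a floor of 3 counts over the WT libraries. That bound rests on IRF8KO replicate 1, without which it was 4.78-fold, an alternative chosen after the values were seen. A readthrough transcript, Gm44805, spans Apoc2 and Apoc4 and shares 79.5% of the Apoc2 exon bases but 4.69% of those of Apoc4. Reads in shared exons are not assigned to either gene, and Gm44805 itself was at 0 in every library. The Apoc2 counts may therefore be incomplete in both groups.

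**Figure D1:**
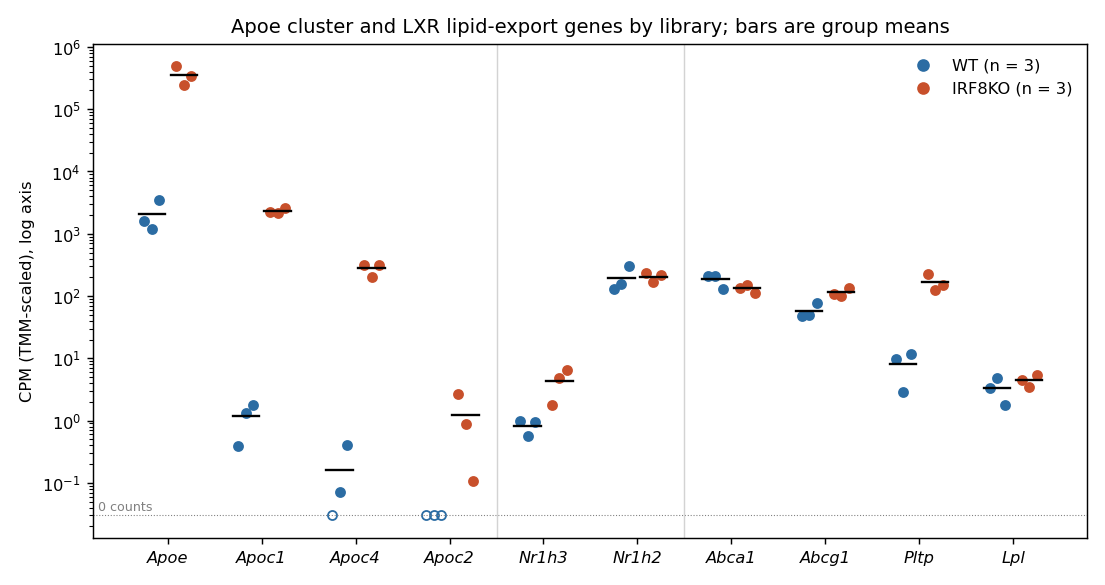
CPM (TMM-scaled, log axis) of each of the 10 genes in the 3 WT and 3 IRF8KO libraries, with 1 point a library, a bar at each group mean and open circles for libraries at 0 counts. Apoe, Apoc1, Apoc4 and Pltp separate by more than 10-fold, Abcg1 and Nr1h3 separate by less, and Abca1, Nr1h2 and Lpl overlap.

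The difference did not extend evenly along the chromosome. Within 100 kb of the Apoe start 8 other protein-coding genes begin, 5 were tested and 1 of them, Relb, a subunit of the noncanonical NF-κB dimer, was called higher. Relb went from 33.9 ± 12.1 to 108 ± 34.8 CPM (SD, n = 3; log2 fold change 1.66, SE 0.35, edgeR adjusted p = 0.0064), and was called under all 16 alternative settings. Tomm40, the mitochondrial import channel gene next to Apoe on the upstream side, was at 35.1 ± 8.66 and 31.4 ± 2.16 CPM (-0.16, adjusted p = 0.739). Clptm1, between Apoc2 and Relb, was at -0.60 (adjusted p = 0.263) and Clasrp, beyond Relb, at 0.09 (adjusted p = 0.836). Nectin2, upstream of Tomm40, was lower in each IRF8KO library than in each WT library but was not called (-0.96, adjusted p = 0.102). It was -0.33 without WT replicate 3, and was called lower with library size alone (adjusted p = 0.0239) and without a filter (0.0376). Bcam, Cblc and Gm44805 had too few counts to test. The 3 genes with log2 fold changes above 7 lie in the stretch from Apoc4 to Apoe. Tomm40 is next on one side, and on the other Apoc2, with 0 counts in WT and 28 in IRF8KO, comes before Clptm1.

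**Figure D2:**
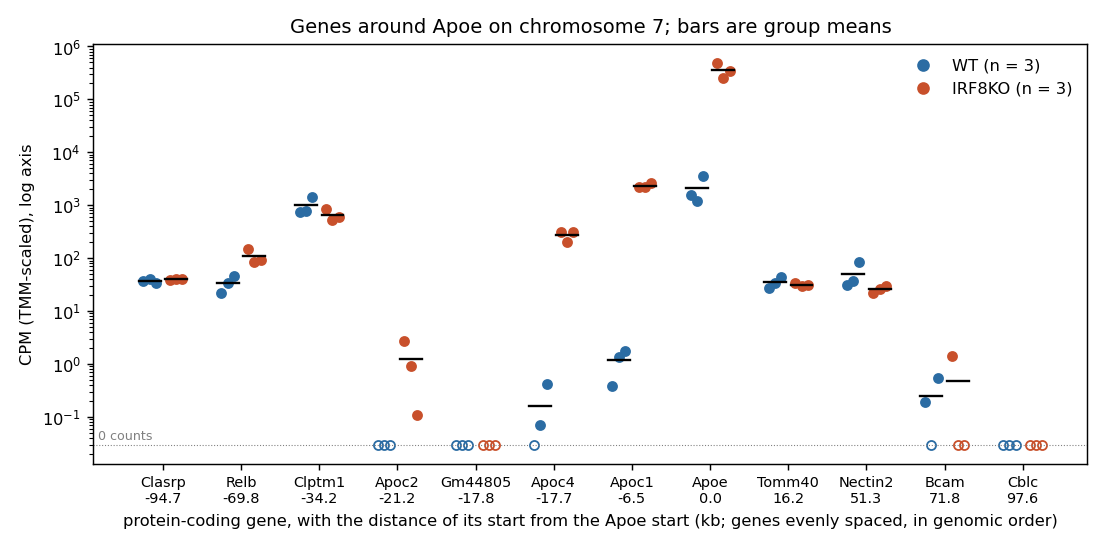
CPM (TMM-scaled, log axis) of the 12 protein-coding genes that start within 100 kb of the Apoe start, in genomic order with the distance of each start in kb; points are libraries, bars are group means and open circles are libraries at 0 counts. Apoe, Apoc1 and Apoc4 differ by log2 fold changes of 7.41 to 10.87, Relb by 1.66, and the libraries of Tomm40, Clptm1 and Clasrp overlap.

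The receptor genes differed from each other in level and in change. Nr1h2 (chr7:44549616-44553951, minus strand), which encodes the widely expressed LXRβ, was at 129, 153 and 307 CPM in WT and 234, 166 and 216 in IRF8KO. The IRF8KO libraries lay inside the WT range. Its log2 fold change was 0.06 (SE 0.35), and it changed sign with the setting: it was -0.37 with library size alone, or 0.24 relative to the median of all genes there. It was called higher only without WT replicate 3, at 0.57, and was -0.18 without WT replicate 1.

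Nr1h3 (chr2:91184061-91202834, minus strand) encodes LXRα, the form known from liver, fat and macrophages. It had few counts, 5, 8 and 7 in WT and 11, 53 and 59 in IRF8KO, or 0.970, 0.565 and 0.963 against 1.76, 4.74 and 6.38 CPM. The groups did not overlap, but IRF8KO replicate 1 was much nearer to WT than the other IRF8KO libraries were. The log2 fold change was 2.39 (SE 0.77) and kept its sign under the 13 alternatives in which it could be fitted, at 1.96 to 2.76, but it was called in only 4 of them. The call was lost without WT replicate 1 (2.49), WT replicate 2 (2.14), IRF8KO replicate 2 (2.32) or IRF8KO replicate 3 (2.0), and in 5 other alternatives. Per kilobase of exon, LXRβ RNA was at 61.3 and LXRα RNA at 1.71 CPM per kb in IRF8KO, and at 58.5 and 0.331 in WT, so LXRβ was the more abundant receptor RNA in both groups.

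Abca1 (chr4:53030787-53159895, minus strand), the transporter that loads lipid-poor apolipoproteins, was at 214, 211 and 130 CPM in WT and 135, 151 and 111 in IRF8KO. The groups overlapped through WT replicate 3, and the IRF8KO mean was the lower one. The means were 185 ± 47.3 and 132 ± 19.9 CPM (SD, n = 3), and the log2 fold change was -0.48 (SE 0.29). The sign was the same in every alternative, from -1.03 to -0.36, and Abca1 was called lower only without WT replicate 3, at -0.64.

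Abcg1 (chr17:31057675-31117988, plus strand), which passes cholesterol on to formed particles, was at 48.1, 48.8 and 76.9 CPM in WT and 110, 102 and 134 in IRF8KO. The lowest IRF8KO library was above the highest WT library. The means were 57.9 ± 16.4 and 115 ± 17.1 CPM (SD, n = 3), and the log2 fold change was 0.99 (SE 0.29). It was positive in all 16 alternatives and called in 10. The call was lost with library size alone (0.53, or 1.15 relative to the median of all genes there) and without WT replicate 1 (0.86), WT replicate 2 (0.87), IRF8KO replicate 1 (1.04), IRF8KO replicate 2 (1.08) or IRF8KO replicate 3 (0.88). The pair of transporters that act on the same pathway thus lay on opposite sides of their WT means.

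Pltp (chr2:164839518-164857711, minus strand) was at 9.70, 2.90 and 11.7 CPM in WT and 227, 125 and 151 in IRF8KO. The groups were far apart, and WT replicate 2 was the lowest library. The means were 8.10 ± 4.61 and 168 ± 53.1 CPM (SD, n = 3), a ratio of 20.7 and a log2 fold change of 4.40 (SE 0.50). Of its exon bases 19.3% overlap Ctsa, the cathepsin A gene on the opposite strand, and the deposited tables also hold counts by strand. In the unstranded column, where reads over both genes are set aside, Pltp had 50, 41 and 85 counts in WT and 1420, 1398 and 1396 in IRF8KO. In one strand column it had 284, 744 and 719 against 1872, 2030 and 2018, and in the other 269, 769 and 802 against 1991, 2152 and 2125. Ctsa had 14506 to 43945 unstranded counts in each library, and the counting by strand gives Pltp the overlap reads of 1 orientation. Ctsa itself had near-equal counts in the strand columns, such as 8031 and 7082 in WT replicate 1, so the reads do not keep the strand. Overlap reads that come from Ctsa can thus be counted for Pltp there. The log2 fold change was 1.78 and 1.72 in the strand columns, with the same sign and a smaller size. How much of those counts is Pltp was not tested.

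Lpl (chr8:68880491-68907448, plus strand), known as a mark of lipid-handling microglia, was low in both groups, at 3.30, 4.87 and 1.79 CPM in WT and 4.48, 3.49 and 5.41 in IRF8KO. The groups overlapped. With 17, 69 and 13 counts in WT and 28, 39 and 50 in IRF8KO, its log2 fold change of 0.41 (SE 0.60) was smaller than its error, and it was -0.17 with library size alone, or 0.44 relative to the median of all genes there. It was called in none of the 16 alternatives.

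**Figure D3:**
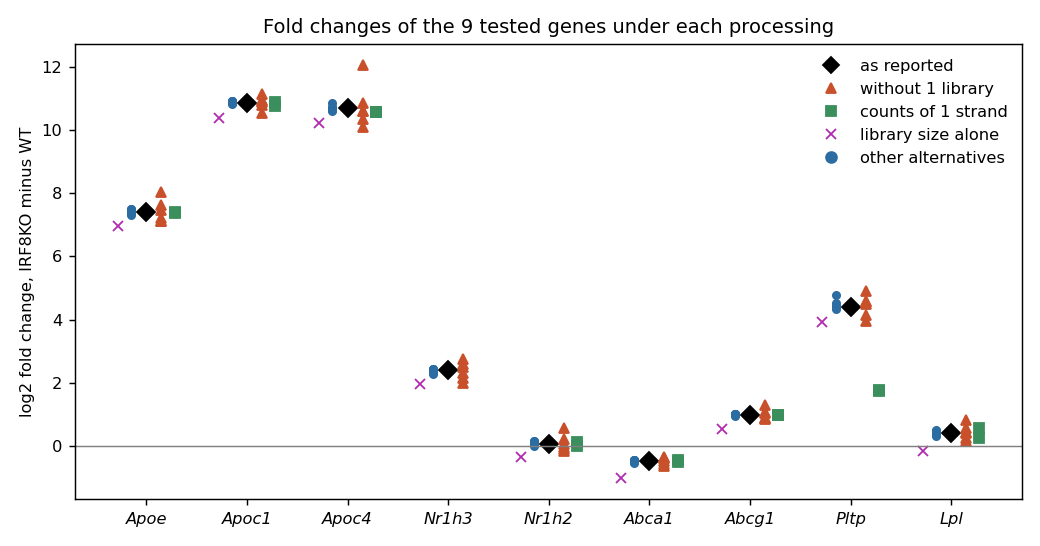
Log2 fold change (IRF8KO minus WT) of the 9 tested genes as reported (black diamonds) and under the alternatives: each library left out, counts of 1 strand, library size alone, and the others. Apoe, Apoc1, Apoc4 and Pltp stay above 1.7 in every alternative fitted, while Nr1h2 and Lpl cross 0.

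Ranked per kilobase of exon, the 10 genes formed a different order in the groups. In WT the order was Apoe (982 CPM per kb), Nr1h2 (58.5), Abca1 (17.9), Abcg1 (7.94), Pltp (3.16), Apoc1 (1.58), Nr1h3 (0.331), Lpl (0.317), Apoc4 (0.0635) and Apoc2 (0). In IRF8KO it was Apoe (166918 CPM per kb), Apoc1 (3147), Apoc4 (109), Pltp (65.5), Nr1h2 (61.3), Abcg1 (15.8), Abca1 (12.8), Nr1h3 (1.71), Apoc2 (1.53) and Lpl (0.426). Neighbours whose library ranges overlapped were Pltp and Apoc1, Nr1h3 and Lpl, and Apoc4 and Apoc2 in WT. In IRF8KO they were Apoc4, Pltp and Nr1h2 in turn, Abcg1 and Abca1, and Nr1h3, Apoc2 and Lpl in turn. Apoc1 lay below Nr1h2 and both ABC transporter genes in WT and above them in IRF8KO. Abca1 lay above Abcg1 in WT without overlap, and in IRF8KO their ranges overlapped.

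Whether LXR targets outside the cluster followed Apoe was asked of a list of 15 further targets. This list and those below were chosen with earlier results of these data known, so their calls and adjusted p-values are descriptive. In edgeR's test 9 of the 15 had enough counts, 0 were called higher and 2 lower, with a median log2 fold change of -0.23 against -0.11 over all genes. The count of 0 higher held at an unadjusted p under 0.05, and with DESeq2 and limma-voom. Mylip, which encodes the ubiquitin ligase that degrades the LDL receptor, was at 87.5, 101 and 67.9 CPM in WT and 23.9, 34.7 and 36.8 in IRF8KO. It fell in IRF8KO without overlap between the groups (-1.43, SE 0.30, edgeR adjusted p = 0.0062), and was called in all 16 alternatives.

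Mertk, the receptor for engulfing dying cells, was at 279, 263 and 112 CPM in WT and 50.4, 130 and 47.0 in IRF8KO (-1.52, SE 0.45, edgeR adjusted p = 0.035). Its groups overlapped, and the call was lost without WT replicate 1 (adjusted p = 0.0896), WT replicate 2 (0.0959), IRF8KO replicate 1 (0.157) or IRF8KO replicate 3 (0.186), while without IRF8KO replicate 2 the log2 fold change was -2.15. It was also lost with library size alone without the Apoe counts (adjusted p = 0.106). Srebf1, the LXR-driven regulator of fatty acid synthesis, was at 153 ± 86.5 and 184 ± 36.9 CPM (SD, n = 3; 0.27, adjusted p = 0.654), and was called higher only without WT replicate 3 (0.87, adjusted p = 0.0103). Lpcat3, a phospholipid-remodelling enzyme gene, was at -0.78 (adjusted p = 0.102), and was called lower in 3 of 16 alternatives: library size alone (0.00592), the same without the Apoe counts (0.0368) and 1 strand column (0.0459). The remaining tested targets, none of them called, were Fasn (log2 fold change -0.35), Rnf145 (-0.23), Arl4c (-0.07), Smpdl3a (0.39) and Scd2 (0.44). Among those without enough counts, Abcg5, Abcg8 and Cyp7a1, which belong to liver and gut sterol handling, were at 0 in every library, and Scd1 and Cd5l were under the filter. These targets and the 10 genes share all 6 libraries, so the values stand side by side and were not correlated.

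**Figure D4:**
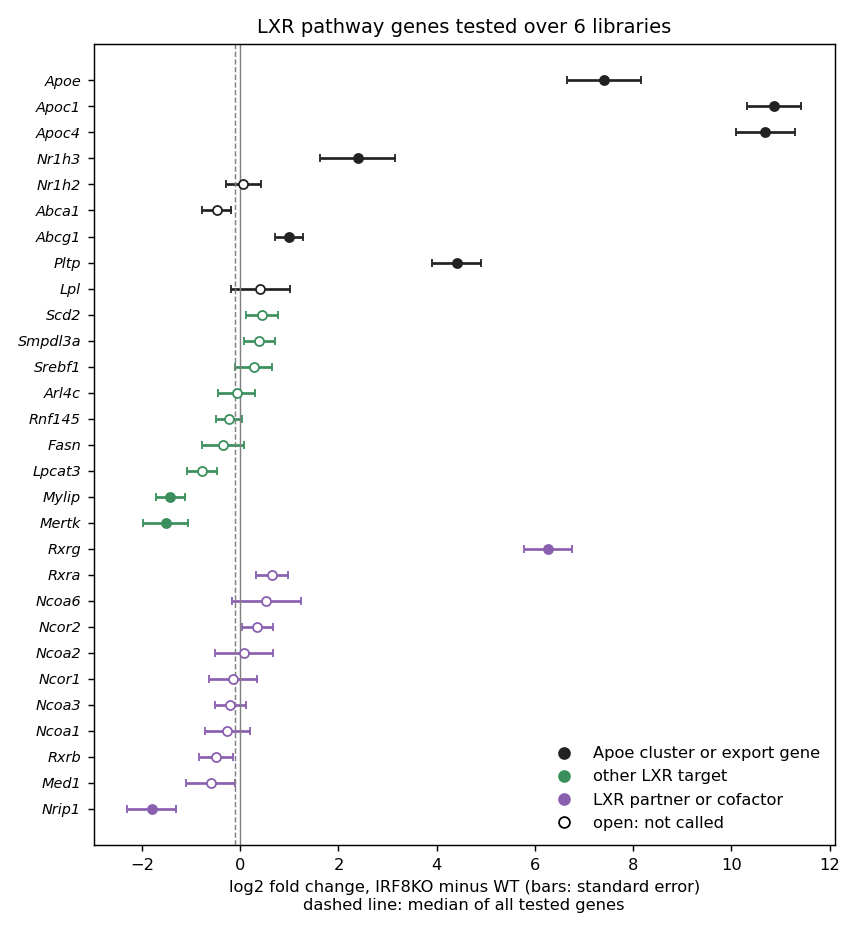
Log2 fold change (IRF8KO minus WT, bars show 1 SE) of the 9 tested genes of the cluster and export set, the 9 tested genes of the list of other LXR targets and the 11 partner and cofactor genes; open points were not called and the dashed line is the median of all genes. The cluster genes and Pltp lie above 4, the other targets lie between -1.52 and 0.44, and Rxrg lies at 6.26.

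Among the genes for partners through which these receptors act, Rxrg stood apart by its size of change. Of 11 partner and cofactor genes, all tested, 1 was called higher and 1 lower, with a median of -0.14. Rxrg, which encodes the retinoid X receptor gamma, rose from 0.388, 0.918 and 0.275 CPM in WT to 56.5, 39.4 and 43.9 in IRF8KO (6.26, SE 0.49, edgeR adjusted p = 9.4e-06). With 2, 13 and 2 counts in WT it passed the filter through IRF8KO, and it was not tested where 10 counts were asked of every library. Without WT replicate 2 its log2 fold change was 7.09. The more abundant Rxra and Rxrb were at 0.64 (adjusted p = 0.195) and -0.50 (adjusted p = 0.33), and Rxra was called higher only without WT replicate 3 (1.01, adjusted p = 0.0128), which makes 2 higher. Nrip1, a nuclear receptor corepressor, fell from 75.0 ± 32.0 to 21.3 ± 15.4 CPM (SD, n = 3; -1.80, adjusted p = 0.026), a call lost without WT replicate 1 (adjusted p = 0.0671), WT replicate 2 (0.0634), IRF8KO replicate 1 (0.107) or IRF8KO replicate 3 (0.149). It was also lost with library size alone without the Apoe counts (0.0931), and its log2 fold change was -2.55 without IRF8KO replicate 2.

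Oxysterols are the ligands of these receptors, and 4 of 7 genes for their making and breaking were tested. Ch25h, the cholesterol 25-hydroxylase, had 3 counts in WT, all in replicate 2, and 936 in IRF8KO, at 19.2, 41.9 and 37.7 CPM (ratio 311, 95% exact interval 106 to 1512; edgeR adjusted p = 2.7e-05). It passed the filter through IRF8KO, no WT count is left without WT replicate 2, and the interval covers counting error only, not the spread between mice. Gm26902 shares 11.5% of its exon bases. Cyp27a1, the sterol 27-hydroxylase, fell from 102 ± 13.4 to 42.4 ± 6.40 CPM (SD, n = 3; -1.27, SE 0.27, adjusted p = 0.0072), and was called in all 16 alternatives.

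Of 11 genes for receptors that take up APOE, 6 were tested and 2 called higher, a count that was 5 without WT replicate 3 and 1 without any other single library. Sorl1, a sorting receptor that binds APOE, rose from 40.5 ± 10.97 to 113 ± 15.4 CPM (SD, n = 3; 1.48, SE 0.29, edgeR adjusted p = 0.0047) and was called in all 16 alternatives. Lrp1, a large endocytic APOE receptor, rose from 440 ± 23.6 to 822 ± 73.9 CPM (0.90, adjusted p = 0.042), but was called in only 8 alternatives: it was lost without any 1 library other than WT replicate 3, with adjusted p from 0.0832 to 0.177, and also with the replicate block (0.0926), without a filter (0.0916) and with library size alone (0.40, adjusted p = 0.196). Trem2, a lipid-sensing receptor of microglia, was at 2728 ± 1174 and 3816 ± 669 CPM (0.48, adjusted p = 0.402).

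Of a list of 8 genes for lipoprotein lipase maturation and inhibition and for intracellular lipases, 5 were tested and 1 fell. It was Lipe, which encodes hormone-sensitive lipase, an enzyme inside the cell that does not act on LPL (58.8 ± 15.9 to 23.7 ± 1.01 CPM, SD, n = 3; -1.31, edgeR adjusted p = 0.0093). That call was lost without IRF8KO replicate 1 (adjusted p = 0.0505) or replicate 3 (0.0663), and 15.6% of the Lipe exon bases overlap another gene. The maturation genes Lmf1 and Sel1l were at 0.01 and -0.59 (adjusted p = 0.986 and 0.144), and Gpihbp1, the endothelial anchor of lipoprotein lipase, was at 0 in every library. Without WT replicate 3, 2 genes of the list were called higher.

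Other lipid transporters of the ABC family gave 3 called lower of 9 tested among 17, with a median of -0.74. The count was 1 without IRF8KO replicate 1 and 0 without IRF8KO replicate 3. Abca7, a phospholipid transporter related to Abca1, fell from 59.2 ± 14.0 to 25.3 ± 5.04 CPM (SD, n = 3; -1.23, edgeR adjusted p = 0.015), a call lost without IRF8KO replicate 3 (0.0998). Abca9 (-1.98, adjusted p = 0.015) and Abcb4, a phosphatidylcholine exporter (-2.09, adjusted p = 0.027), fell as well. The Abca9 call was lost without IRF8KO replicates 1 or 3 (0.0864 and 0.108) and its value was -2.61 without replicate 2, and that of Abcb4 also without WT replicates 1 or 2, with adjusted p from 0.0979 to 0.12 over these 4. Both calls were also lost with library size alone without the Apoe counts (0.062 and 0.0761).

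Outside the cluster, 2 of 12 other apolipoprotein genes were tested. Clu, apolipoprotein J, rose from 9.81 ± 7.81 to 45.7 ± 12.7 CPM (SD, n = 3; 2.24, SE 0.56, edgeR adjusted p = 0.017), a call lost without IRF8KO replicate 1 (0.0783) or replicate 3 (0.0551). Its log2 fold change was 1.74 without WT replicate 2 and 3.14 without WT replicate 3. Apod was at 2.88 without a call (adjusted p = 0.125), and 8 of the 12 were at 0 in WT.

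Genes of sterol synthesis and its control gave 3 called higher and 1 lower of 20 tested, with a median of 0.02. Pmvk, a mevalonate pathway kinase, rose from 11.6 ± 3.80 to 41.0 ± 13.7 CPM (SD, n = 3; 1.82, edgeR adjusted p = 0.0063), a call lost without IRF8KO replicate 3 (0.0542). Srebf2, the regulator of the pathway, rose from 36.4 ± 6.93 to 77.3 ± 6.96 CPM (1.09, adjusted p = 0.017), and the call was lost without WT replicate 1 (0.0573), WT replicate 2 (0.107), IRF8KO replicate 1 (0.0782) or IRF8KO replicate 3 (0.0728), and with library size alone (0.0903). Sqle, the squalene epoxidase, rose from 0.824 to 5.14 CPM (2.58, adjusted p = 0.023; up to 0.121 without WT replicates 1 or 2 or IRF8KO replicate 3, and 0.0687 with library size alone). With 3, 17 and 5 counts in WT, Sqle passed the filter through IRF8KO. Insig1, which holds back the pathway and was chosen after its values were seen, completes the count as the gene that fell (-2.16, adjusted p = 0.044), a call kept in 4 of 15 alternatives and lost without any 1 of the libraries, and, with adjusted p from 0.0571 to 0.0746, under limma-voom, both strand columns, the replicate block and library size alone without the Apoe counts. Ebp, a sterol isomerase gene, was at 0.98 (adjusted p = 0.053) with groups that did not overlap, and was called higher in 8 of 16 alternatives. Scap was at -0.77 (adjusted p = 0.164). The count of 3 higher was 4 with DESeq2, limma-voom and the replicate block, and 5 without WT replicate 3. It was 1 with library size alone, without WT replicate 1 or without WT replicate 2. Without IRF8KO replicate 1 it was 2, and without IRF8KO replicate 3 it was 0.

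Genes whose levels followed Apoe most closely over the 6 libraries were found by the Euclidean distance between centred log2 CPM. They were Pilrb2 (distance 1.13), an activating immunoglobulin-like receptor gene, Unc119 (1.28), Clec12a (1.44), an inhibitory lectin receptor gene, Cfp (1.44), the complement factor properdin, and Cxcl14 (1.46), a chemokine gene. All 5 were near 0 in WT, at 0.111 to 1.63 CPM, and at 35.1 to 308 CPM in IRF8KO. Those closest to Abca1 were Abcc5 (0.14), Uggt1 (0.20), Dnajc5 (0.24), Slc18b1 (0.24) and Vezt (0.25), with log2 fold changes from -0.58 to -0.47. The likeness rests on 6 libraries in 2 groups, so it mostly records the difference between the groups.

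Markers of other cell types were measured beside these genes. Of 12 markers of border-associated macrophages, the macrophages of the brain's coverings and vessels, 9 were tested and all 9 were called higher, with summed levels of 611 to 836 CPM in WT and 4139 to 5425 in IRF8KO. Stab1 alone made up 601, 649 and 821 CPM of the WT sums, and was at 2302, 1763 and 1770 in IRF8KO. Markers near 0 in WT, such as Pf4 and Ms4a7, passed the filter on low counts through IRF8KO, so their direction was largely set by it. Lyve1 and Cd209f were at 0 in all libraries, Cd163 and F13a1 were at 0 in WT, and Mrc1 rose from 3.11 ± 0.542 to 39.2 ± 19.0 CPM (SD, n = 3; edgeR adjusted p = 0.00021). Astrocytes are a main source of APOE in the brain, and of their 12 markers 8 were tested, 4 called higher and 1 lower. Their summed levels were 178 to 215 CPM in WT and 127 to 216 in IRF8KO, and Slc1a3, the marker that fell, was at 151 ± 58.4 and 8.74 ± 6.53 CPM (SD, n = 3). Slc1a3 alone made up 190, 180 and 84.2 CPM of the WT sums of 215, 189 and 178. In IRF8KO it made up 7.85, 15.7 and 2.7 CPM of the sums of 216, 148 and 127. The 4 that rose were Aldh1l1 (3.20 to 12 CPM), Gfap (3.01 to 15.7), Slc1a2 (0.134 to 4.17) and S100b (0.206 to 4.95), and Aldoc was at 33.7 and 106 CPM without a call. Slc1a2 and S100b, with 0 to 6 counts in each WT library, passed the filter through IRF8KO. Gfap, with 16, 6 and 40 counts in WT, also needed its IRF8KO libraries to pass. The calls of Gfap and Aldh1l1 were each lost with library size alone and without WT replicate 1, WT replicate 2, IRF8KO replicate 1 or IRF8KO replicate 3, with adjusted p up to 0.164 and 0.143, and that of Gfap also without IRF8KO replicate 2 (0.0683). Aqp4 was at 0.0647 and 0.358 CPM and Gja1 at 0 and 0.0895. Neutrophil markers summed to 322 CPM in IRF8KO replicate 2 and to 2.40 and 2.06 CPM in IRF8KO replicates 1 and 3. The neutrophil markers summed to 0 to 0.141 CPM in WT, and Cxcr2, the one tested, had 0 counts in each WT library and 10, 46 and 16 in IRF8KO. Of 8 monocyte markers Chil3 was at 34.6 CPM in IRF8KO replicate 2 and at 0 in the other 5 libraries, and Fn1, the one tested, had 0, 1 and 1 counts in WT and 25, 42 and 14 in IRF8KO. Cxcr2 and Fn1 were called higher, having passed the filter through IRF8KO. Neuronal markers had summed levels of 0.353 to 5.78 CPM in WT and 19.2 to 28.7 in IRF8KO, with 2 of 4 tested called higher, Rbfox3 (0.984 to 12.4 CPM) and Syt1 (0.321 to 4.59). Both had few WT counts, 1, 4 and 18 and 0, 0 and 7, and passed the filter through IRF8KO. The Rbfox3 call was lost without IRF8KO replicate 3 (adjusted p = 0.0506), and that of Syt1 in 6 of 15 alternatives. Oligodendrocyte markers summed to 284 to 696 and 479 to 684 CPM, with Mbp at 151 and 436 CPM without overlap or a call (edgeR adjusted p = 0.056) and Cnp, which fell, at 185 and 45.1. Of 9 lymphocyte markers 2 were tested. Cd79b fell from 75.8 to 17.1 CPM, and Cd4, with 0 counts in WT and 26, 37 and 41 in IRF8KO, was called higher, having passed the filter through IRF8KO. Of 7 endothelial markers 1 was tested, Pecam1, which fell from 19.0 to 1.95 CPM. Flt1 had 0 counts in WT and 5, 88 and 59 in IRF8KO. The part of these cells in the values of the cluster was not tested.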

How the data were processed

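Bulk RNA of sorted microglia from 3 WT and 3 IRF8KO male mice was analysed, each brain isolated separately per the labels' protocols. The submitters' processing notes name mm10, STAR 2.5.2b, Picard 2.17.11, bcl2fastq, Subread and featureCounts, without role or order; annotation and trimming settings are not given in the sources used here. The deposited tables hold raw read counts per gene in an unstranded column, used here, and a column for each strand. The 4 lines that name no gene were left out: reads without a feature were 2.44% to 7.7% and ambiguous ones 8.2% to 10.8% of uniquely mapped reads. Ensembl IDs were matched to GENCODE M21, for 49326 of 49585, and levels per kilobase use its exon lengths.

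Counts were filtered with edgeR 4.0.16 (filterByExpr, minimum count 10), scaled by TMM and tested by glmQLFTest with genotype as the only term (R 4.3.3), adjusted over all 11041 genes. The scripts were tested on simulated data. The 16 alternatives covered DESeq2 1.42.0 size factors and test, limma-voom 3.58.1, library size alone with and without Apoe counts, stricter and no filter, strand columns, a replicate block and each library left out. Ratios of Apoc4 and Ch25h, with 4 and 3 WT counts, carry exact 95% intervals.

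The 10 genes and all lists were chosen with earlier results of these data known. The text names the 10 genes, each called gene among other LXR targets, of every other list the 3 called genes with the smallest p and the 2 most abundant tested genes, the genes within 100 kb of Apoe, Irf8, and the 5 genes nearest to Apoe and to Abca1 in pattern. The other tested LXR targets, Insig1 and the markers were added after their values were seen. Some genes that this rule names are not reported here.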

Additional observations from a re-analysis of the deposited data

How the results depend on the processing

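The direction of Apoe, Apoc1, Apoc4, Nr1h3, Abca1, Abcg1 and Pltp was the same in each alternative in which the gene could be fitted: 13 for Nr1h3, 15 for Apoc1 and Apoc4, and 16 for the others. Library size alone gave 652 genes higher and 1914 lower, and log2 fold changes of -1.03 for Abca1, 0.53 for Abcg1 and -0.17 for Lpl; its median over all genes was -0.61, and without a filter that median was 0.10. Asking for 10 counts in every library left 3 of the 10 genes called higher, since Apoc1, Apoc4 and Nr1h3 were no longer tested. Pltp was at 1.78 and 1.72 in the strand columns, where overlap reads of Ctsa can be counted for it. With 3 mismatches, 1 promoter held the LXR element.

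With single libraries left out, 524 to 2168 genes were called higher and 386 to 1835 lower, the most without WT replicate 3 and the fewest without IRF8KO replicate 3. Of the 10 genes 4 to 7 were then higher and 0 to 1 lower, and of the other LXR targets 0 to 1 higher and 1 to 2 lower. Apoc4 ranged from 10.09 to 12.08 and Nr1h2 from -0.18 to 0.57.

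Replicate numbers gave no clear sign of pairing: deviations of same-numbered libraries correlated at -0.26, 0.328 and 0.114, and not every library correlated best with its own number. The deviations come from group means of so few libraries that they cannot decide whether samples were paired. With the replicate block 1141 genes were called higher and 1212 lower, and of the 10 genes 5 were called, Nr1h3 not among them. WT counts of 0 to 19 limit the size of the Apoc1, Apoc2 and Apoc4 differences.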
